A study of Eulimnogammarus verrucosus and Eulimnogammarus cyaneus and Gammarus lacustris with 24 samples.

Results

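Eulimnogammarus cyaneus is a small-bodied amphipod crustacean found only in Lake Baikal, and its transcriptome was compared here between animals kept for 1 month at 1.5 °C and animals kept at 12 °C. The comparison takes 8 of the 24 libraries of the study, 4 for each temperature, chosen by species and temperature alone. Each library came from whole adult bodies pooled before RNA extraction, with about 13 animals in a pool per the labels (12 to 15 per the design text), collected in the littoral zone at Bolshie Koty. All pools had first spent 14 days at 6 °C, and the temperature was then changed over about 6 days, so neither group was an untreated control. The comparison asks which genes of a cold-lake endemic change in level between temperatures at the cold and warm ends of this exposure. The other libraries belong to the larger endemic Eulimnogammarus verrucosus (8 libraries) and to the widespread Gammarus lacustris (8 libraries), and are used below only where the response of E. cyaneus was tested against theirs.

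An amphipod has no internal control of its body temperature, so enzyme rates, membrane fluidity, protein folding and ATP demand all shift with the water around it. In ectotherms kept in the cold, the processes most often examined are the desaturation of membrane lipids, the chaperones that fold actin and tubulin, mitochondrial respiration, muscle function, protein synthesis and the making of yolk. In crustaceans yolk protein is vitellogenin, made by the female fat-storing tissue and ovary, so that its RNA in a whole body follows the number and stage of breeding females as well as its level per cell.

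Gene names come from the authors' deposited table of the species, which lists 3674 names. The transcript identifiers of the count files carry no names, and a name was joined to a transcript where the mean normalised count of both was identical. This joined 2930 of the 3674 names, which held between 6.79 and 8.08% of the estimated counts of a library. For up to 259 of them, each joined to a pair of transcripts, the fold change also had to lie near the authors' value. The authors' fold changes also guided the library scaling used in joining. The transcripts of a name were summed, and 1617 joined names had enough counts to be tested. They were tested together with all other transcripts, 20477 features in all, with edgeR's quasi-likelihood test and Benjamini-Hochberg adjustment. A fold change is given as log2 of the 1.5 °C level divided by the 12 °C level, and a positive sign means more RNA at 1.5 °C. Levels are in CPM, the count of a gene scaled to the library size, and are not per length, so levels of different genes are not compared. Every group has n = 4 pools, and p-values measure the spread between pools. Names rest on the best match of an assembled transcript to proteins of other animals. Reads of near-identical copies such as actins, tubulins and ribosomal proteins can be split between transcripts, which makes values of those names uncertain. In whole bodies, fewer cells of a tissue and less RNA per cell cannot be told apart.

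The 8 libraries held 9110215 to 14222375 estimated counts. Replicate 1 at 12 °C stood apart: its 10 most abundant transcripts took 25.55% of its counts against 11.38 to 17.77% in the other 7, its scaling factor was 0.667, and its median rank correlation with the other 12 °C pools was 0.858 against 0.914 to 0.941 for the other libraries within their groups. The first principal component (33.24% of the variance) separated that library from the rest. List medians that move by 0.05 or more without it are therefore given both ways, as are the fold changes of Unc-89, H1F0, SOD2 and OPN4.

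Few features passed the adjusted threshold of 0.05. Of 20477 features, 130 were called (0.635%), 64 of them higher (0.313%) and 66 lower (0.322%) at 1.5 °C, and 121 of the 130 carry no name. Among the 1617 named features 9 were called (0.557%), 3 higher and 6 lower. Leaving out 1 pool at a time gave 40 to 201 features and 1 to 18 names, with the lowest counts without replicate 3 at 1.5 °C and the highest without replicate 1 at 12 °C. The median log2 fold change was 0.07 over the named features (0.02 without replicate 1 at 12 °C), with 902 positive and 715 negative, and 0.007 over all features. At an unadjusted p under 0.05, 121 names were higher (7.48%, against 6.26% of all features) and 101 lower (6.25%, against 8.03%).

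The authors' deposited table, fitted with DESeq2 per the submitters' processing notes, called more names than the edgeR test did: 154 of the 2458 names with an adjusted p (6.27%), 55 higher (2.24%) and 99 lower (4.03%). The adjustment there spans 2458 names and in edgeR 20477 features, so the adjusted p-values are not directly comparable. With the unnamed transcripts included, DESeq2 run here called 58 names. Of these 154 names in the authors' deposited table, 112 were also tested here, and in all 112 the edgeR fold change had the same sign. The unadjusted edgeR p was under 0.05 for 107 of the 112 and the adjusted p for 9. In 85 of the 112 the 4 pools at 1.5 °C did not overlap the 4 at 12 °C, which held for 206 of all 1617 named features (12.7%), 134 of them higher (8.29%) and 72 lower (4.45%). Both fits use the same libraries, so the match in sign is not independent support. For names whose joining also used the fold change, the match was partly set by the joining. Below, "rose" and "fell" are used where a name passed the adjusted threshold in the edgeR test or in the authors' deposited table, and the table is named wherever its value is given. Some names differ only in letter case and are separate entries. In the pairs RPL12 and rpl12, Uba1 and UBA1, eif2a and EIF2A, and GstZ1 and GSTZ1, only the first was called in the authors' deposited table. These pairs were chosen after their values were seen. FAH, actb, ACTB, ACTG1, HSPA1A, HSPA14, HSP90AA1, cct-1, PFDN4, RPL31, EIF4A1, GLRA4, phr, MKI67 and JUN fall outside the rule for the genes named and were chosen after their values were seen.

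**Figure D1:**
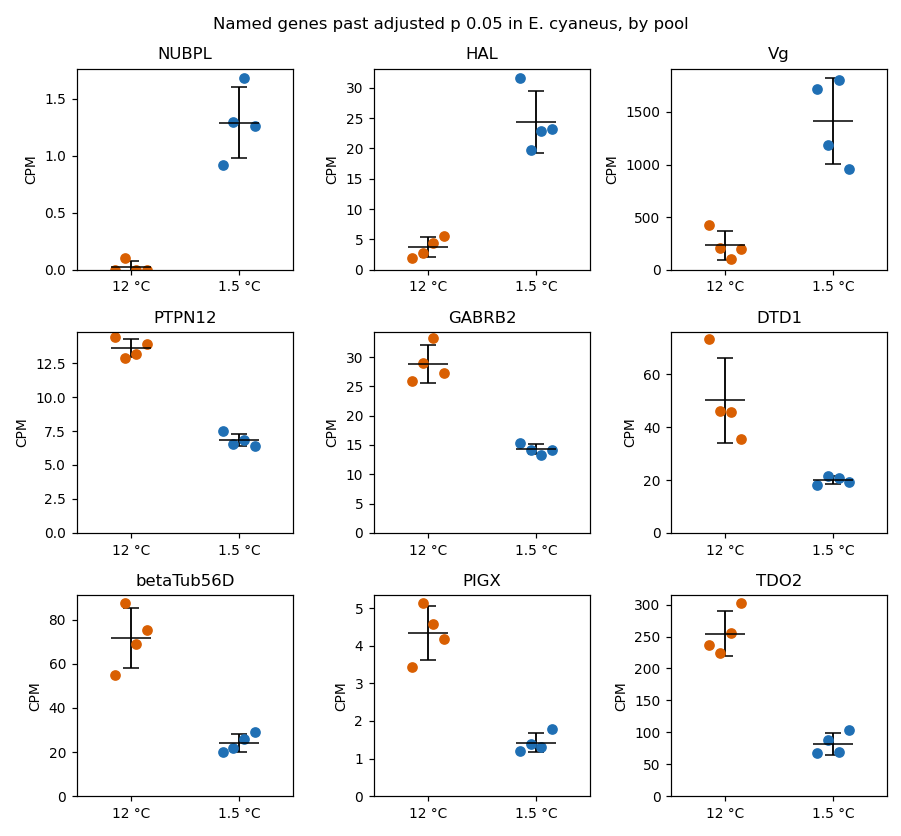
CPM in each pool (points) of the 9 named genes with an edgeR adjusted p under 0.05, at 12 °C (orange) and 1.5 °C (blue), with the group mean (long bar) and SD (short bars, n = 4), and a separate vertical scale per gene. For all 9 the pools of the 2 temperatures do not overlap.

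Enzymes of amino acid breakdown changed in both directions. HAL encodes histidine ammonia-lyase, which takes the first step of histidine breakdown. Its level was 1.98, 2.67, 4.39 and 5.63 CPM in the 12 °C pools and 31.7, 19.7, 22.8 and 23.2 CPM in the 1.5 °C pools. Every cold pool lay far above every warm pool, and HAL rose 6.55-fold (log2 fold change 2.71 ± 0.34 SE, edgeR adjusted p = 0.00877). TDO2, tryptophan 2,3-dioxygenase, starts the breakdown of tryptophan along the kynurenine route. It stood at 236, 224, 256 and 303 CPM at 12 °C and at 67.4, 87.3, 69.4 and 104 CPM at 1.5 °C. All 4 cold pools were below all warm pools, and TDO2 fell 3.11-fold (−1.64 ± 0.22, edgeR adjusted p = 0.011).

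Further enzymes of the same list moved in both directions in the authors' deposited table. AADAT, a kynurenine aminotransferase downstream of TDO2, fell by 1.85 on the log2 scale (adjusted p = 0.0441 in the authors' deposited table). Its pools were at 0.661 to 2.49 CPM at 12 °C and 0.198 to 0.874 CPM at 1.5 °C and overlapped (edgeR −1.74 ± 0.55, adjusted p = 0.19). PCCB, a subunit of the mitochondrial propionyl-CoA carboxylase that takes in the carbon of valine, isoleucine and methionine, rose by 2.12 (adjusted p = 0.0106 in the authors' deposited table). It was near the detection limit, at 0.198 to 0.537 CPM at 12 °C and 0.975 to 3.5 CPM at 1.5 °C, without overlap. In tyrosine breakdown, the dioxygenase HPD rose by 0.49 ± 0.11 (adjusted p = 0.00102) and the isomerase GstZ1 fell by 0.96 ± 0.28 (adjusted p = 0.0164), both in the authors' deposited table. FAH, the hydrolase after GstZ1, was at −0.55 ± 0.19 and did not pass (adjusted p = 0.058 in the authors' deposited table). HIBADH, a dehydrogenase of valine breakdown, fell by 0.68 (adjusted p = 0.028 in the authors' deposited table), from 45.8 to 66.9 CPM in the warm pools to 34.1 to 35.6 CPM in the cold pools. In all, 3 members of the list rose and 4 fell among 33 with an adjusted p in the authors' deposited table (21.2%, against 6.27% of all names). The list as a whole showed no lean, with 14 positive and 11 negative fold changes among 25 tested here and a median of 0.09 (0.00 without replicate 1 at 12 °C).

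Vg, which encodes the yolk precursor vitellogenin, was at 424, 201, 105 and 192 CPM in the 12 °C pools and at 1720, 1190, 1800 and 953 CPM in the 1.5 °C pools. The lowest cold pool lay above the highest warm pool, and Vg rose 6.14-fold (2.62 ± 0.42, edgeR adjusted p = 0.0287). NASP, a chaperone of histones, rose by 0.80 (adjusted p = 0.0164 in the authors' deposited table). Its pools were at 77.1, 79.3, 73.6 and 69 CPM at 12 °C and 147, 82.5, 161 and 170 CPM at 1.5 °C, and replicate 2 of the cold group was close to the warm pools. The yolk, lipid transport and germ line list had 3 tested names, Vg, NASP and NANOS2, and a median of 0.9. Of these, 2 were positive and NANOS2 was negative, with an edgeR log2 fold change of −0.51. Among 7 names of the list with an adjusted p, 2 rose and none fell in the authors' deposited table (28.6%, against 6.27% of all names). The 2 were Vg and the histone chaperone NASP, so no other name of the list was called. Summed over the 4 joined ovary, germ line and yolk markers (Vg, aub, NANOS2 and NANOS3) of 7 listed, the level was 106 to 434 CPM at 12 °C and 956 to 1800 CPM at 1.5 °C, nearly all of it Vg. Testis markers overlapped, at 0.529 to 3.31 CPM against 0.595 to 1.94 CPM over 12 of 17 markers. The part that the sex ratio or breeding state of the pools had in the change of Vg was not tested.

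Replicating cells were followed through 74 names of DNA replication and the cell cycle, of which 31 were tested. Of these 21 were positive and 10 negative, with a median of 0.33 (0.22 without replicate 1 at 12 °C) against 0.07 over all named features. CDC27, a subunit of the anaphase-promoting complex, was at 4.23, 5.54, 5.82 and 8.04 CPM at 12 °C and at 14, 11.9, 10.3 and 11.1 CPM at 1.5 °C. MKI67, the proliferation marker Ki-67, is not on the list and was at 4.1, 4.65, 5.19 and 7.39 against 10.9, 8.12, 12.3 and 12.7 CPM. In both, every cold pool exceeded every warm pool. CDC27 rose by 1.01 (adjusted p = 0.00588) and MKI67 by 0.93 (adjusted p = 0.014) in the authors' deposited table. PRC1, a crosslinker of the central spindle, rose by 0.70 and the flap nuclease FEN1 by 0.44 (adjusted p = 0.0324 and 0.0336 per the authors' deposited table). The helicase subunit MCM7 (0.60 ± 0.20, edgeR adjusted p = 0.204) and the polymerase subunit POLD1 (0.60 ± 0.21, edgeR adjusted p = 0.241) did not pass, and their pools did not overlap either. Over the list the pools did not overlap for 6 higher and 1 lower of the 31 tested names. Over all named features this held for 8.29% higher and 4.45% lower. The linker histone H1F0 went the other way. It fell by 1.28 (adjusted p = 0.00647 in the authors' deposited table), from 27 to 73 CPM at 12 °C to 18.3 to 23.4 CPM at 1.5 °C, and its log2 fold change in edgeR was −1.16 with all libraries and −0.85 without replicate 1 at 12 °C.

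DNA repair names split, with 11 positive and 15 negative of 26 tested and a median of −0.05 (0.01 without replicate 1 at 12 °C). XPC, which finds helix-distorting lesions, rose by 0.43 (adjusted p = 0.0462 in the authors' deposited table), at 26.7 to 33.4 CPM in the warm and 42.4 to 46.5 CPM in the cold pools. RAD9B, a relative of the checkpoint clamp subunit RAD9, fell by 0.77, and phr, the light-driven photolyase, fell by 3.44 ± 1.04 from a low mean normalised count of 8.53 (adjusted p = 0.0195 and 0.0222 per the authors' deposited table). PARP2, which marks DNA breaks, did not pass (0.57 ± 0.19, edgeR adjusted p = 0.223).

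Names of contractile proteins were lower in the cold. All 7 tested names of the muscle list had negative fold changes, with a median of −0.95 (−0.74 without replicate 1 at 12 °C). Of the 10 muscle names with an adjusted p in the authors' deposited table, 7 fell and none rose (70.0%, against 6.27% of all names). The obscurin relative Unc-89, a giant protein of the thick-filament M-line, was at 11800, 3370, 3510 and 4540 CPM at 12 °C and 2420, 2140, 1800 and 2890 CPM at 1.5 °C. The groups do not overlap, but the first warm pool lay far above the rest, and the edgeR log2 fold change moved from −1.33 to −0.73 without it. Sallimus (sls), the titin-like spring of invertebrate muscle, was at 560, 281, 405 and 334 CPM against 187, 181, 167 and 215 CPM, again without overlap (−1.08 ± 0.24, edgeR adjusted p = 0.0892). The myosin regulatory light chain Mlc2 was at 13700, 8460, 8350 and 3890 CPM against 2420, 2750, 4250 and 4420 CPM, and the fourth warm pool lay within the cold range.

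The falls of these names in the authors' deposited table were 1.49 for Unc-89 (adjusted p = 0.011), 1.43 for Mlc2 (0.00174) and 1.19 for sls (0.000346). The troponin I name TNNI1, which sets the calcium response of the thin filament, fell by 1.04 (adjusted p = 0.0195 in the authors' deposited table), at 3220 to 6570 CPM in the warm and 1410 to 3040 CPM in the cold pools. LDB3, a Z-disc scaffold, fell by 1.42, and RYR2, the calcium release channel of the sarcoplasmic reticulum, by 0.83 (adjusted p = 0.00328 and 0.00617 per the authors' deposited table). Both are names that were not joined to transcripts. UNC45A, a chaperone of myosin, fell by 0.40 (adjusted p = 0.0463 in the authors' deposited table). Outside the list, the troponin C name TpnCII fell by 0.91, the actin names actb, ACTB and ACTG1 by 0.97, 0.72 and 1.39, and gelsolin (Gel), which severs actin filaments, by 0.92, with adjusted p of 0.000221, 0.0164, 0.028, 0.0477 and 7.75e-05 in the authors' deposited table. Summed over 7 of 10 muscle markers, the level was 12100 to 31300 CPM at 12 °C and 6480 to 10400 CPM at 1.5 °C. The first warm pool was the highest, and without it the warm range was 12100 to 18700 CPM, still above the cold pools.

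Microtubule genes did not move as a group: 7 of 18 tested names were positive and 11 negative, with a median of −0.14. The tubulin betaTub56D nevertheless fell 2.97-fold. It was at 55.1, 87.7, 69 and 75.5 CPM in the warm pools and at 19.8, 21.9, 25.8 and 29.2 CPM in the cold pools, which do not overlap (−1.57 ± 0.22, edgeR adjusted p = 0.0157). TUBB, a second beta-tubulin name of low count, fell by 2.22 (adjusted p = 0.00234 in the authors' deposited table), with 0.884 to 2.38 CPM in the warm and 0.184 to 0.583 CPM in the cold pools. KIF2A, a kinesin that takes microtubules apart, was at 98.4 to 145 CPM against 78.2 to 91.3 CPM and did not pass (−0.46 ± 0.19, edgeR adjusted p = 0.303).

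Chaperones of actin and tubulin and co-chaperones of HSP90 held calls in both directions. The chaperonin subunit cct7, part of the ring that folds actin and tubulin, was at 190, 192, 169 and 149 CPM in the warm pools and at 276, 316, 327 and 320 CPM in the cold pools. The groups lay clear of each other (0.82 ± 0.18, edgeR adjusted p = 0.0807), and cct7 rose by 0.73 in the authors' deposited table (adjusted p = 0.000144). Its ring partner cct-1 was at 0.67 ± 0.27 and did not pass (adjusted p = 0.135 in the authors' deposited table). The other ring subunits on the list, CCT2, CCT3, CCT5 and CCT6A, were not called either. PTGES3, the HSP90 co-chaperone p23, was at 346, 415, 476 and 339 CPM against 520, 576, 622 and 695 CPM, without overlap, and rose by 0.53 (adjusted p = 0.0126 in the authors' deposited table). The strongest call in this group was FKBP4, an HSP90 co-chaperone of the immunophilin family, which rose by 1.01 ± 0.14 with an adjusted p of 1.22e-10 in the authors' deposited table. It was not joined to transcripts, and its values per pool were not analysed here. PFDN4, a subunit of the prefoldin complex that hands actin to the chaperonin, fell by 0.51 (adjusted p = 0.028 in the authors' deposited table).

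None of the heat-shock protein names given here was called. Among those with an adjusted p in the authors' deposited table, HSPA1A was at −0.11 ± 0.19, HSPA14 at 0.06 ± 0.16 and HSP90AA1 at 0.12 ± 0.55, with adjusted p of 0.823, 0.897 and 0.952. A second and rarer transcript name, Hspa1a, was at 0.0804 to 1.19 CPM in the warm and 1.38 to 3.9 CPM in the cold pools (1.82 ± 0.65, edgeR adjusted p = 0.239). The small heat-shock name CRYAB was at 245 to 680 CPM against 194 to 244 CPM and did not pass (−0.75 ± 0.32, edgeR adjusted p = 0.333). Over the whole chaperone list 3 names rose and 2 fell among 48 in the authors' deposited table (10.4%, against 6.27% of all names). The 27 tested here had a median of 0.08 (−0.01 without replicate 1 at 12 °C).

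**Figure D2:**
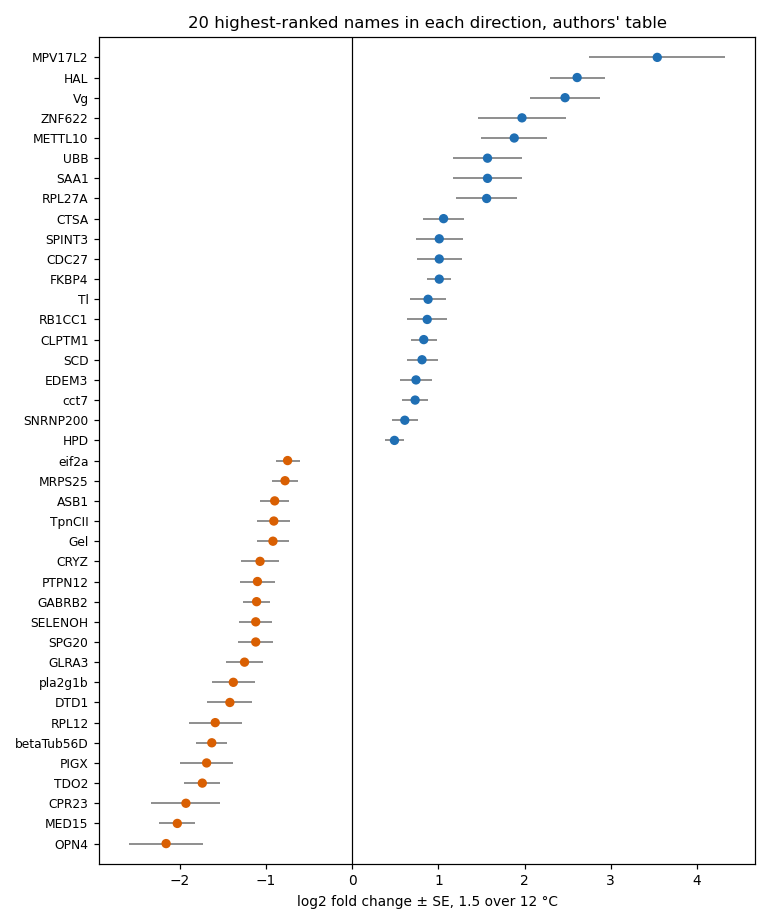
Log2 fold change (1.5 over 12 °C) with its SE, from the authors' deposited table, of the 20 names with the smallest adjusted p in each direction and a mean normalised count of at least 10. Higher names (blue) run from HPD at 0.49 to MPV17L2 at 3.54, and lower names (orange) from eif2a at −0.75 to OPN4 at −2.16.

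Respiratory chain names leaned lower. Of 18 tested, 16 were negative and 2 positive, with a median of −0.33 (−0.41 without replicate 1 at 12 °C). Over all named features 715 of 1617 were negative. Of 32 names with an adjusted p, 5 fell and none rose (15.6%, against 6.27% of all names) in the authors' deposited table. Among the falls were 1.11 for NDUFA12 of complex I, 0.57 for the cytochrome c1 name CYC1 of complex III, and 0.86 for COX6C and 0.85 for COX5A of cytochrome c oxidase, with adjusted p of 0.0413, 0.0138, 0.0195 and 0.0174 in the authors' deposited table. COX5A was at 302, 408, 381 and 190 CPM in the warm pools and at 131, 172, 218 and 230 CPM in the cold pools. The fourth warm pool lay inside the cold range, as it also did for COX6C and NDUFA12. No edgeR adjusted p in the list was under 0.05. The ATP synthase subunit ATP5B was at 315 to 596 CPM against 263 to 416 CPM (−0.35 ± 0.26, edgeR adjusted p = 0.574). Taken over the list, the median deviation from each gene's mean was 0.37, 0.44, 0.39 and −0.24 (log2) in the 4 warm pools and −0.54, −0.25, 0.04 and 0.03 in the cold pools, so the temperatures overlapped through replicate 4 of the warm group.

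Ribosomal names followed the same pool-to-pool pattern. Of 19 tested proteins of the mitochondrial ribosome 16 were negative, with a median of −0.51 (−0.29 without replicate 1 at 12 °C). MRPS25 fell by 0.78 (adjusted p = 5.29e-05 in the authors' deposited table), at 49.9, 53.3, 58.8 and 42.8 CPM in the warm and 28, 30, 34.5 and 34.5 CPM in the cold pools, without overlap. MRPS33 fell by 0.65 (adjusted p = 0.0384 in the authors' deposited table), and its pools overlapped. Of 30 tested proteins of the cytosolic ribosome 20 were negative, with a median of −0.42 (−0.27 without replicate 1 at 12 °C).

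In the cytosolic ribosome 5 of 59 names fell and 2 rose in the authors' deposited table (11.9%, against 6.27% of all names). RPL12 fell by 1.59, RPL38 by 1.07, the stalk protein RPLP2 by 0.97, RPL31 by 0.80 and RPL35A by 0.76, with adjusted p of 5.29e-05, 0.0366, 0.0126, 0.0456 and 0.0195 in the authors' deposited table. RPLP2 was at 1440, 1090, 736 and 752 CPM at 12 °C and 416, 491, 640 and 650 CPM at 1.5 °C, so the groups did not overlap but came close. RPL27A rose by 1.56 and RpL5, with a low mean normalised count of 14.7, rose by 2.43 (adjusted p = 0.00046 and 0.0411 per the authors' deposited table). A further name outside the list, rpl-9, rose by 1.13 (adjusted p = 0.0371 in the authors' deposited table) and was likewise chosen after its value was seen. The median deviations of the list were 0.57, 0.35, 0.04 and −0.40 (log2) in the warm pools and −0.45, −0.22, 0.00 and 0.03 in the cold pools, which overlapped.

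Among translation factors, eif2a, an initiation factor that can bring initiator tRNA to the ribosome, was at 216, 214, 243 and 207 CPM in the warm and 138, 152, 145 and 128 CPM in the cold pools. The groups lay clear of each other, and eif2a fell by 0.75 (adjusted p = 1.56e-05 in the authors' deposited table). The elongation factor subunits eef1g and EEF1D fell by 1.07 and 0.61 and the release factor GSPT1 by 2.28, the last from a mean normalised count of 8.84, while EIF4A1, at 9.51, rose by 3.54 (adjusted p = 0.0195, 0.0495, 0.011 and 0.0138 per the authors' deposited table). The 13 tested members split 6 to 7, with a median of −0.06. RIOK1, a kinase of small-subunit maturation, fell by 1.41 (adjusted p = 0.00287 in the authors' deposited table), at 141, 57, 56.9 and 57.3 CPM against 32.3, 36.8, 31.3 and 29 CPM. It was the only ribosome biogenesis name of 26 to be called in the authors' deposited table (3.85%, against 6.27% of all names).

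DTD1 removes D-amino acids that were loaded onto tRNA by mistake. It was at 73.3, 46.1, 45.6 and 35.6 CPM in the warm pools and at 18.3, 21.5, 20.9 and 19.1 CPM in the cold pools. The cold pools were tightly grouped below all warm pools, and DTD1 fell 2.51-fold (−1.33 ± 0.24, edgeR adjusted p = 0.0481). The tRNA synthetases FARS2, TARS and GARS fell by 0.86, 0.56 and 0.44 (adjusted p = 0.0263, 0.0138 and 0.0336 per the authors' deposited table). TARS was at 154 to 204 CPM in the warm and 103 to 150 CPM in the cold pools. With DTD1, 4 of 19 names of the list fell and none rose in the authors' deposited table (21.1%, against 6.27% of all names).

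**Figure D3:**
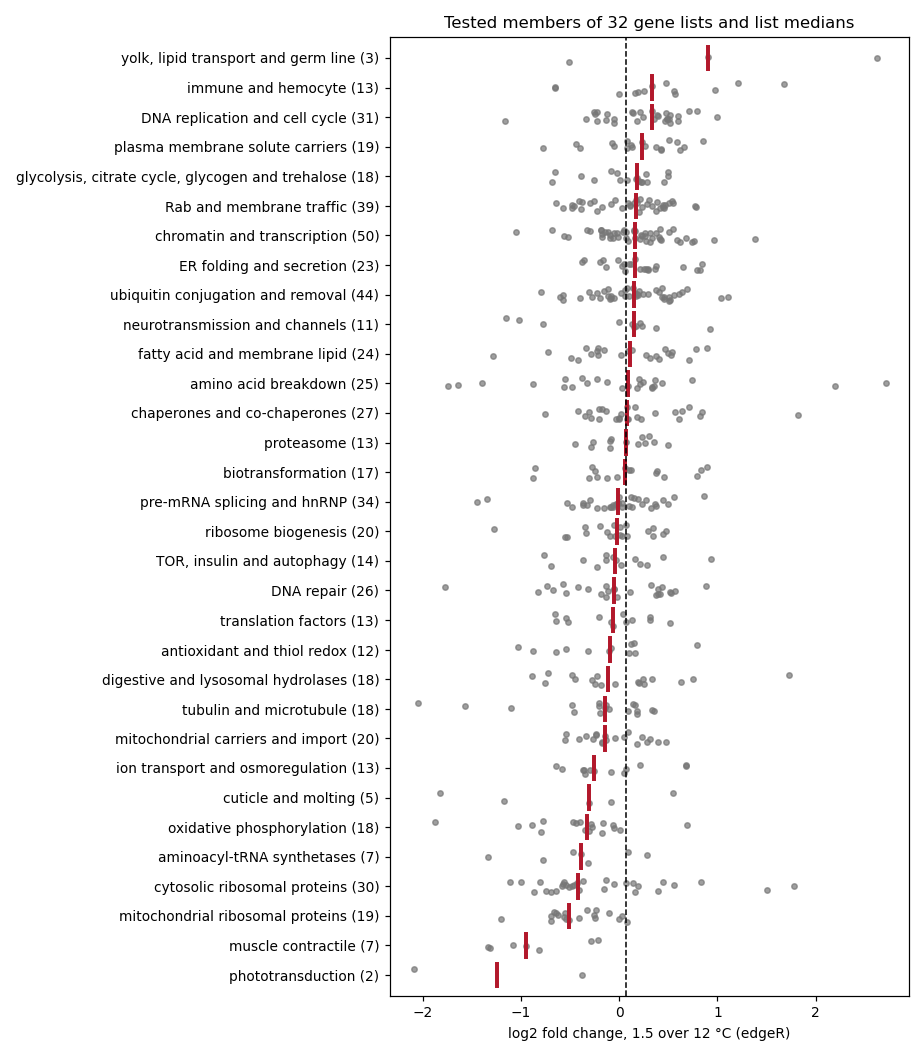
Log2 fold change (1.5 over 12 °C, edgeR) of each tested member (grey points) of 32 gene lists, with the list median (red bar) and the median of all named features (dashed line, 0.07); the number tested stands after each list name. Phototransduction (2 tested), muscle, the ribosomal lists, tRNA synthetases and respiration lie lowest, and the yolk list, with 3 tested, highest.

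**Figure D4:**
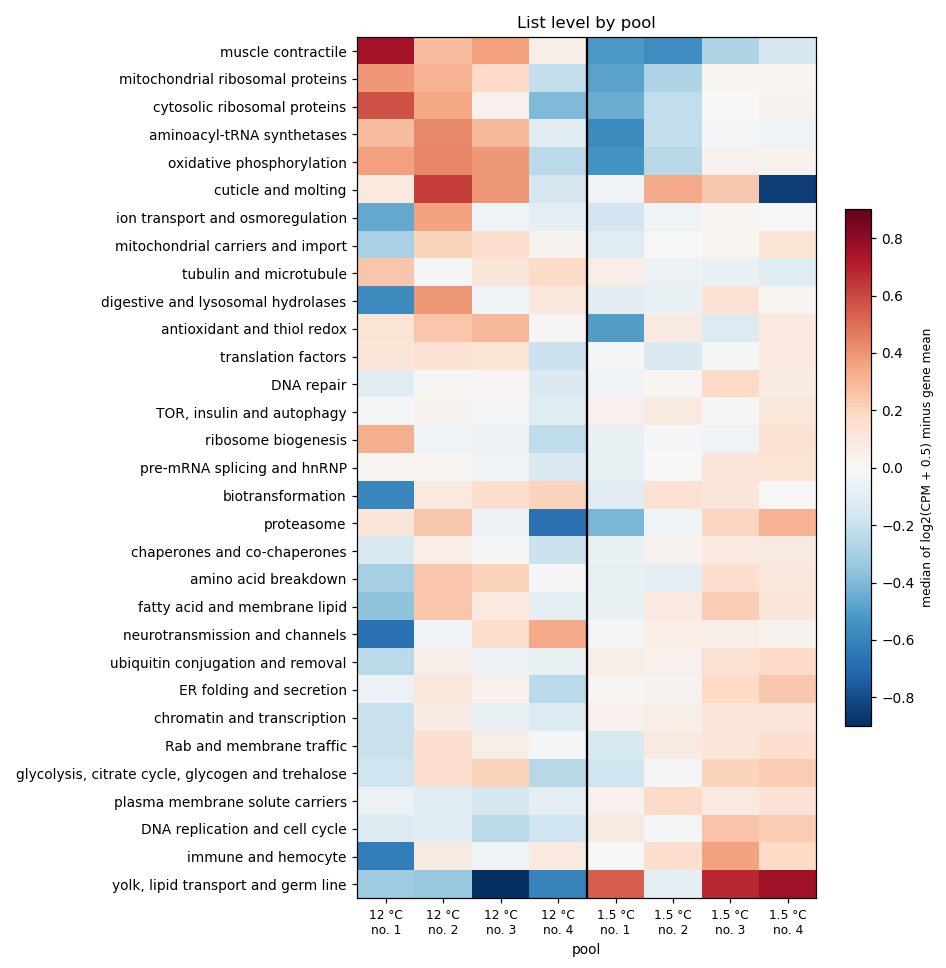
Level of the 31 lists with at least 3 tested members in each pool, as the median over members of log2(CPM + 0.5) minus the gene's mean over 8 pools (red higher, blue lower), in the order of their median fold change. Replicate 4 at 12 °C lies with the cold pools in the ribosomal and respiratory lists, and replicate 1 at 12 °C is the highest of the muscle list at 0.75.

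Protein turnover and secretion showed few calls. In the endoplasmic reticulum, EDEM3, a mannosidase that marks misfolded glycoproteins for removal, was at 9.92, 13.4, 9.31 and 13 CPM in the warm pools and 20.9, 19.3, 19.8 and 21.5 CPM in the cold pools. There was no overlap, and EDEM3 rose by 0.74 (adjusted p = 0.00515 in the authors' deposited table). It was the only call among 44 names of its list (2.27%, against 6.27% of all names). The ubiquitin name UBB rose by 1.57 and the ubiquitin-activating enzyme Uba1 by 1.57 from a mean normalised count of 18.4, the deubiquitinase OTUD6B fell by 0.88, and the proteasome activator PSME4 rose by 0.76 (adjusted p = 0.00436, 0.0395, 0.011 and 0.0336 per the authors' deposited table). UBB is on no list. Calls in the authors' deposited table were 2 of 69 names of the ubiquitin list (2.9%) and 1 of 19 of the proteasome list (5.26%). No core proteasome subunit of the list was called there, and the 13 tested members had a median of 0.07 (0.17 without replicate 1 at 12 °C). In membrane traffic, TRAPPC5, a subunit of the tethering complex of early secretion, was at 60.4 to 69.6 CPM against 37.9 to 43.4 CPM and fell by 0.74, and the adaptor subunit AP3S1 fell by 0.67 (adjusted p = 0.000268 and 0.0195 per the authors' deposited table). These were the only 2 calls among 57 names of their list (3.51%, against 6.27% of all names). Of 39 tested here 25 were positive and 14 negative, with a median of 0.17 (0.04 without replicate 1 at 12 °C). RB1CC1, the scaffold that starts autophagosome formation, was at 14.5, 19.3, 16.6 and 23 CPM in the warm and 40.9, 29.2, 31 and 38.6 CPM in the cold pools, without overlap. It rose by 0.87 (adjusted p = 0.00704 in the authors' deposited table), the only call among 17 names of TOR, insulin and autophagy (5.88%, against 6.27% of all names).

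In RNA processing the helicase SNRNP200, which unwinds the U4/U6 pair in the spliceosome, rose by 0.61, and SART1, a protein of the same tri-snRNP, by 0.74 (adjusted p = 0.00182 and 0.0288 per the authors' deposited table). SART1 was at 32.9 to 53.3 CPM in the warm and 63.6 to 79.6 CPM in the cold pools. The other 68 of the 70 splicing names with an adjusted p were not called (2.86% called, against 6.27% of all names). The 34 tested here split 17 to 17. MED15, a subunit of the Mediator complex between transcription factors and RNA polymerase II, fell by 2.03 ± 0.21 and had the smallest adjusted p of all names in the authors' deposited table, 1.57e-18. It was not joined to transcripts, so its pools were not analysed here. TAF9B, a subunit of the TFIID complex, fell by 1.15 (adjusted p = 0.011 in the authors' deposited table), at 7.31 to 17.3 CPM against 4.61 to 6.55 CPM. These 2 were the only calls among 68 chromatin and transcription names (2.94%, below the 6.27% of all names), and the 50 members tested here had a median of 0.16.

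SCD encodes the stearoyl-CoA desaturase, which puts the first double bond into saturated fatty acids. It was at 917, 852, 1020 and 693 CPM in the warm pools and at 1240, 1510, 1880 and 1850 CPM in the cold pools. All cold pools were above all warm pools (0.89 ± 0.22, edgeR adjusted p = 0.106), and SCD rose by 0.81 in the authors' deposited table (adjusted p = 0.000598). The phospholipase pla2g1b was at 73.1, 83.8, 42.9 and 47.7 CPM against 25.9, 25.5, 27.8 and 22.4 CPM, without overlap. It fell by 1.38, the acyl-CoA synthetase ACSF2 by 1.56, and CPT1A, which carries fatty acids into mitochondria, by 0.83 (adjusted p = 7.9e-06, 0.000265 and 0.0164 per the authors' deposited table). These were the only 4 calls among 45 names of the lipid list (8.89%, against 6.27% of all names). Its tested members had a median of 0.11 (0.05 without replicate 1 at 12 °C). In central carbon metabolism IDH3B, a subunit of the citrate cycle's isocitrate dehydrogenase, fell by 0.75 (adjusted p = 0.0349 in the authors' deposited table). It was the only call among 32 names there (3.12%, against 6.27% of all names). The trehalose synthase name Tps1 was at 499 to 720 CPM in the warm and 739 to 1030 CPM in the cold pools and did not pass (0.50 ± 0.21, edgeR adjusted p = 0.314).

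The calls among redox and detoxification names were all falls. The 12 antioxidant names tested here were 5 positive and 7 negative, with a median of −0.09 (−0.19 without replicate 1 at 12 °C), and the 17 biotransformation names 9 positive and 8 negative, with a median of 0.06 (−0.20 without that pool). SELENOH, a nuclear selenoprotein, was at 37.8, 47.8, 59.7 and 43.2 CPM in the warm and 17.6, 21.8, 27 and 25.9 CPM in the cold pools, without overlap. It fell by 1.12 (adjusted p = 1.02e-06 in the authors' deposited table; edgeR −1.03 ± 0.22, adjusted p = 0.0819). The cytochrome P450 name Cyp6a9 fell by 0.94, the sulfotransferase SULT1C3 by 0.88 and the glucuronosyltransferase relative Ugt37b1 by 0.86 (adjusted p = 0.0154, 0.0195 and 0.0195 per the authors' deposited table), and GstZ1 counts in both lists. Cyp6a9 was at 24.6, 65.6, 59.4 and 58.6 CPM against 28.1, 23.9, 27.3 and 35.6 CPM, and the first warm pool lay with the cold ones. Calls were 2 of 19 antioxidant names (10.5%) and 4 of 36 biotransformation names (11.1%), none of them higher and GstZ1 counted in each, in the authors' deposited table, where 6.27% of all names were called. The superoxide dismutase SOD2 was at 424 to 1160 CPM against 333 to 463 CPM and did not pass (−0.64 ± 0.33, edgeR adjusted p = 0.412; −0.20 without replicate 1 at 12 °C).

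GABRB2 and GLRA3, named for receptors of inhibitory transmitters, fell. GABRB2, a subunit of GABA-gated chloride channels, was at 25.9, 28.9, 33.3 and 27.2 CPM in the warm pools and 15.4, 14.1, 13.3 and 14.2 CPM in the cold pools. The cold pools lay close together below every warm pool, and GABRB2 fell 2.02-fold (−1.02 ± 0.18, edgeR adjusted p = 0.0415). GLRA3, a glycine receptor relative, was at 960, 757, 980 and 714 CPM against 303, 407, 338 and 493 CPM, again without overlap, and fell by 1.25 (adjusted p = 1.72e-06 in the authors' deposited table; edgeR −1.15 ± 0.22, adjusted p = 0.0603). A rare name, GLRA4, with a mean normalised count of 5.7, rose by 4.24 (adjusted p = 0.0164 in the authors' deposited table). Summed over all 8 nerve markers the level was 749 to 1020 CPM at 12 °C and 325 to 512 CPM at 1.5 °C, nearly all of it GLRA3. The remaining 9 tested names of the neural list were not called, and its median was 0.15 (−0.08 without replicate 1 at 12 °C).

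The opsin name OPN4, a light receptor, was at 24.6, 84.9, 117 and 89.4 CPM in the warm pools and at 8.39, 29.6, 22.1 and 13.8 CPM in the cold pools. The first warm pool was well below the other warm pools and lay within the cold range. OPN4 fell by 2.16 (adjusted p = 7.75e-05 in the authors' deposited table), and its edgeR log2 fold change was −2.09 with all libraries (adjusted p = 0.0999) and −2.41 without replicate 1 at 12 °C (adjusted p = 0.037). The cuticle protein CPR23 fell by 1.93 (adjusted p = 0.000169 in the authors' deposited table), at 53.7, 42.8, 30.2 and 14.1 CPM against 9.59, 8.69, 15.4 and 6.15 CPM, where the fourth warm pool overlapped the cold ones. Eye markers summed to 26.2 to 130 CPM at 12 °C and 16.8 to 45.2 CPM at 1.5 °C, cuticle markers to 93.4 to 696 against 13.4 to 251 CPM, and digestive gland markers to 18.6 to 85.2 against 25.5 to 38.3 CPM, with overlap in each. The part of tissue make-up in these results was not tested.

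Immune names were mostly higher. Of 13 tested, 11 were positive, against 902 of all 1617 named features. The median was 0.33 (0.21 without replicate 1 at 12 °C), against 0.07 (0.02) over all named features. Of 18 names with an adjusted p, 3 rose and 1 fell (22.2%, against 6.27% of all names) in the authors' deposited table. No immune name passed the adjusted threshold in the edgeR test. Toll (Tl), the receptor of the antimicrobial signalling route, was at 19.7, 32.6, 36.8 and 40 CPM in the warm and 66.2, 61.9, 65.6 and 60.6 CPM in the cold pools. There was no overlap, and Tl rose by 0.88 (adjusted p = 0.00134 in the authors' deposited table). SAA1, a serum amyloid A name of the acute-phase type known from vertebrates, was at 270, 237, 111 and 121 CPM against 448, 1070, 389 and 456 CPM, with the second cold pool far above the others. It rose by 1.57, and hemolectin (Hml), the clotting protein of hemocytes in flies, by 1.05, while the caspase CASP6 fell by 0.79 (adjusted p = 0.00399, 0.0112 and 0.0109 per the authors' deposited table). The 4 joined hemocyte markers summed to 0.793 to 4.58 CPM at 12 °C and 2.78 to 7.47 CPM at 1.5 °C, with overlap. The lysosomal hydrolases CTSA and CTSH rose by 1.06 and 1.72 (adjusted p = 0.000923 and 0.0379 per the authors' deposited table). CTSH was at 1.59, 1.48, 1.34 and 0.723 CPM in the warm pools and at 9.59, 2.19, 2.91 and 2.38 CPM in the cold pools, where the first stood far above the rest.

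Transport showed single calls. In the authors' deposited table the sulfate carrier SLC26A2 rose by 1.00 (adjusted p = 0.0336), the only call of 28 plasma membrane carriers (3.57%). The proton pump subunit name ATP6V1B2 rose there by 3.78 from a mean normalised count of 3.97 (adjusted p = 0.0366). It was the only call of 21 ion transport names (4.76%). None of 22 mitochondrial carriers was called in the authors' deposited table, where 6.27% of all names were. The sodium-proton exchanger Nhe3 was at 9.04 to 11.7 CPM in the warm and 16.2 to 18.6 CPM in the cold pools, without overlap, and did not pass (0.68 ± 0.19, edgeR adjusted p = 0.139).

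Of the 154 calls in the authors' deposited table, 68 belong to no list. NUBPL, which assembles iron-sulfur clusters into respiratory complex I, had 0, 1, 0 and 0 reads in the warm pools and 10, 16, 23 and 19 reads in the cold pools. It was thus nearly unseen at 12 °C, and the ratio of 68 to 1 reads over the summed library sizes was 68.8 with an exact 95% counting interval of 11.9 to 2760 (edgeR log2 fold change 5.22 ± 0.69, adjusted p = 0.011). MPV17L2, a protein of mitochondrial ribosome assembly, had 0, 0, 9 and 0 reads against 32, 25, 39 and 38, a ratio of 15.1 (7.7 to 33.7). It rose by 3.54 (adjusted p = 0.000585 in the authors' deposited table). These intervals cover counting error only. Rare names given above include EIF4A1, GLRA4, ATP6V1B2, RpL5 and Uba1, which rose, and GSPT1 and phr, which fell. Whether the reads of these names, NUBPL and MPV17L2 are RNA of the animals themselves was not tested.

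PIGX, a subunit of the enzyme that adds mannose to GPI anchors, was at 3.44, 5.15, 4.57 and 4.18 CPM in the warm pools and at 1.2, 1.38, 1.31 and 1.79 CPM in the cold pools. It fell 3.03-fold without overlap (−1.60 ± 0.27, edgeR adjusted p = 0.0353). PTPN12, a tyrosine phosphatase of cell adhesion, was at 14.4, 12.9, 13.2 and 13.9 CPM against 7.47, 6.58, 6.85 and 6.41 CPM, without overlap, and fell 1.99-fold (−0.99 ± 0.18, edgeR adjusted p = 0.0495). CLPTM1, a multi-pass membrane protein, was at 66, 87, 82.8 and 93.2 CPM against 147, 146, 148 and 181 CPM, without overlap, and rose by 0.83 (adjusted p = 3.04e-06 in the authors' deposited table). METTL10, a methyltransferase of the elongation factor eEF1A, rose by 1.88 (adjusted p = 7.75e-05), and SPG20, the spartin of lipid droplets and endosomes, fell by 1.12 (adjusted p = 7.9e-06) in the authors' deposited table. The pools of SPG20 were at 31.9 to 39.4 CPM at 12 °C and 14.3 to 22.4 CPM at 1.5 °C. JUN, a subunit of the AP-1 transcription factor, fell by 0.78 and ASB1, a substrate adaptor of ubiquitin ligases, by 0.90, with adjusted p of 0.00134 and 2.91e-05 in the authors' deposited table.

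The response of E. cyaneus was then tested against that of each other species, as the difference of the log2 fold changes over names joined in both. Names are shared by best match and are not proven orthologs. Against E. verrucosus 779 names were tested and 10 differed (1.28%), 5 with a higher value in E. cyaneus and 5 with a lower one (0.642% each). For 9 of the 10 the change in E. cyaneus was under 1 on the log2 scale, and the fitted change in E. verrucosus was the larger. Some of these fitted values rest on very few reads in E. verrucosus. The exception was AMT, the aminomethyltransferase of glycine breakdown, which had 1, 1, 2 and 3 reads in the warm and 4, 7, 13 and 17 reads in the cold pools of E. cyaneus and is too rare there to enter the test within the species. Its fitted change was 2.13 ± 0.50 in E. cyaneus and −0.39 ± 0.27 in E. verrucosus (difference 2.52 ± 0.57, edgeR adjusted p = 0.0324). Over the 779 names the median absolute log2 fold change was 0.34 in E. cyaneus and 0.36 in E. verrucosus, and 80 and 155 names exceeded 1. Pools of E. verrucosus held 3 animals against about 13 in E. cyaneus, and the part of pool size in these counts was not tested. A set of 25 names lay below −1.5 in E. verrucosus, with a median of −2.82 there and −0.16 in E. cyaneus. Together they held 0.00612 to 0.0132% of an E. verrucosus library at 12 °C and 0.000815 to 0.00184% at 1.5 °C. The set held 4 of the 10 differences. The limit was chosen after the values were seen, and whether these reads are RNA of the animals themselves was not tested.

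Against G. lacustris 803 names were tested and 360 differed (44.8%), with the value of E. cyaneus higher for 302 (37.6%) and lower for 58 (7.22%). G. lacustris had a median absolute log2 fold change of 1.34 against 0.35 in E. cyaneus, and 442 names exceeded 1 in G. lacustris against 100 in E. cyaneus. The fold changes of G. lacustris fell into separate groups of names. A set of 370 names lay below −1.5 there with a median of −2.89, and together they held 0.256 to 0.591% of a library at 12 °C and 0.0412 to 0.0692% at 1.5 °C. In E. cyaneus the same names held 0.599 to 0.745% and 0.725 to 0.82%, with a median change of 0.04. Of the 302 higher differences 296 lay in this set, and among the other 433 names 64 differed, 6 higher and 58 lower. The lower differences over all shared names, 58, numbered 18 without replicate 2 at 12 °C of E. cyaneus and 15, 16 and 17 without its replicates 1, 2 and 3 at 1.5 °C, so most of them were lost when any 1 of these 4 pools was left out. The limit of −1.5 was chosen after the values were seen, and the source of the set in G. lacustris was not tested. Whether its reads are RNA of the animals themselves, and not of another organism in the pools, was not tested either, so the differences in this set are given as values of the libraries and not as differing responses of the species.

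The DNA replication names FEN1 and MCM4 belong to this set. FEN1 changed by 0.47 ± 0.24 in E. cyaneus and −3.41 ± 0.36 in G. lacustris (difference 3.88 ± 0.44, edgeR adjusted p = 3.61e-06), and the helicase subunit MCM4 by 0.43 ± 0.27 and −2.85 ± 0.31 (difference 3.28 ± 0.41, edgeR adjusted p = 7.84e-06). In the cell cycle list 7 of 13 shared names differed, all 7 higher in E. cyaneus, where 37.6% of all shared names were higher and 7.22% lower. In the cytosolic ribosome list 10 of 14 were higher and 1 lower. The chaperone list gave 8 higher and 1 lower of 14. Muscle names gave 0 higher and 1 lower of 4, where the median was −0.91 for E. cyaneus and −0.01 for G. lacustris. Respiration gave 4 higher and 2 lower of 18, with medians of −0.35 and −0.38.

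**Figure D5:**
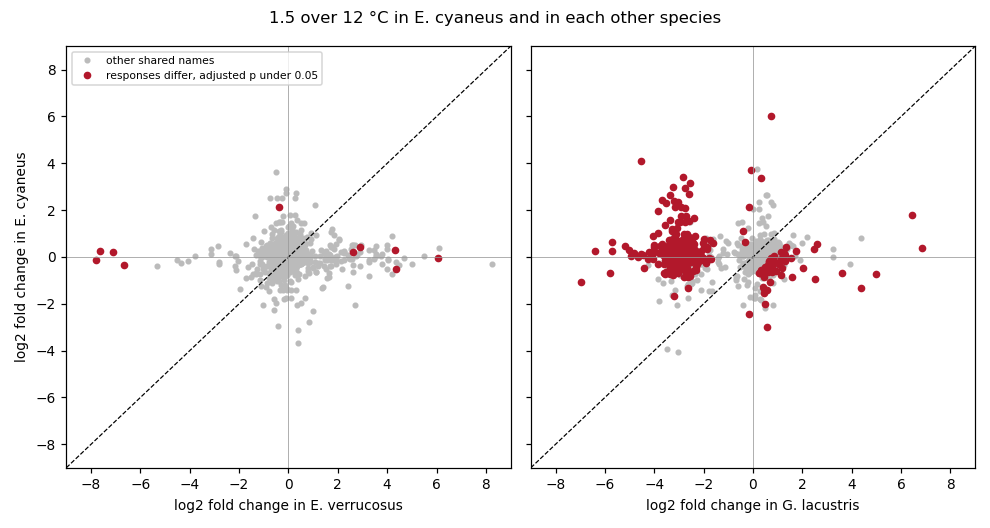
Log2 fold change (1.5 over 12 °C) of each shared name in E. cyaneus (vertical) against E. verrucosus (left, 779 names) and G. lacustris (right, 803 names); red names have responses that differ at an edgeR adjusted p under 0.05, and the dashed line marks equal change. In the right panel the 370 names below −1.5 in G. lacustris form a cluster that lies around 0 in E. cyaneus.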

How the data were processed

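RNA-seq was made from 24 pools of whole amphipods, 8 of them E. cyaneus, and these 8 carry the tests within the species. Per the submitters' processing notes, the tools included DESeq2 1.26.0 and Salmon 1.1.0. The design text in the labels describes a Trinity assembly per species, reduced with cd-hit-est and TransRate to transcripts that match metazoan sequences. The authors deposited estimated counts and TPM per transcript and library. Their table per species holds, per the file headers, the mean normalised count (a signal averaged over libraries), the log2 fold change with its SE, a test score, and a raw and adjusted p-value. The TPM values deposited by the authors served only in joining, as weights of the transcript lengths.

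Estimated counts were summed over the transcripts of a name and rounded to whole numbers. A name was joined where the mean normalised count agreed within a relative 1e-11, and values shifted by 1e-05 gave 0 matches. Features were filtered with filterByExpr (minimum count 10, minimum total 15), scaled with TMM and tested with edgeR 4.0.16 in R 4.3.3, adjusted over all features. Species were compared by the interaction term over names joined in both, with a common scaling. The fits were tested on simulated data. Alternatives used limma 3.58.1 and DESeq2 1.42.0, other scaling and filters, a replicate block and leaving out each pool.

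Named genes are those called by edgeR, the 20 with the smallest adjusted p in each direction in the authors' deposited table at a mean normalised count of at least 10, up to 6 members of each list by p and 3 by level, up to 4 called members not joined, and the 10 leading species differences. The gene lists and members were chosen with earlier results of these data known. Library totals limit precision for names with few counts. Some results on single genes are not reported here.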

Additional observations from a re-analysis of the deposited data

Results flagged for a closer look

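Of 188 groups of 4 values examined for a sample far from the other 3, 13 held one, and chance flags about 1 group in 20. In replicate 1 at 12 °C, RIOK1 was at 141 CPM against 56.9 to 57.3 in the other warm pools, SOD2 at 1160 against 424 to 524, Unc-89 at 11800 against 3370 to 4540, and HIBADH at 66.9 against 45.8 to 48.1. In the same pool the summed hemocyte and immune markers were at 0.793 CPM against 4.06 to 4.58. Elsewhere among the warm pools, PCCB was at 0.198 CPM and NUBPL at 0.099 CPM in replicate 2, MPV17L2 at 0.806 CPM in replicate 3, and MRPS33 at 60.9 CPM in replicate 4. NUBPL and MPV17L2 had no reads in the other warm pools. Among the cold pools, CTSH was at 9.59 CPM in replicate 1 against 2.19 to 2.91, SAA1 at 1070 CPM in replicate 2 against 389 to 456, and in replicate 4 CLPTM1 was at 181 CPM and POLD1 at 23 CPM.

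By edgeR's interaction test, the fold changes of E. cyaneus and E. verrucosus differed for 10 names. Of these, CCDC124, C9orf41, MND1 and AMACR lay below −1.5 in E. verrucosus, in the set whose source was not tested. The differences, E. cyaneus minus E. verrucosus on the log2 scale, were 7.89 for CCDC124, 7.69 for C9orf41, 7.32 for MND1, 6.30 for AMACR and 2.52 for AMT. They were −6.10 for ALYREF, −4.87 for OSTF1, −4.01 for GTF2E1, −2.47 for RAD50 and −2.40 for YTHDC1. Several rest on groups with almost no reads in E. verrucosus, so the fitted sizes are no bounds. MND1 and C9orf41 had no reads in any cold pool of that species, and were at least 17.1-fold and 27.5-fold higher at 12 °C, against a floor of 3 counts over the group. OSTF1 had none in its warm pools and was at least 2.99-fold higher at 1.5 °C.

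Of the 360 differences from G. lacustris, the 10 with the smallest p were 4.51 for CXXC1, 3.88 for FEN1, 3.28 for MCM4, 3.43 for USP39, 3.04 for ACY1, 5.83 for RpL36A, 2.89 for EBNA1BP2, 3.15 for RPN1, 4.19 for EXOC8 and 3.38 for PRPF6 (log2, E. cyaneus minus G. lacustris). In each of the 10 the value in G. lacustris was below −1.5.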

How the results depend on the processing

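Counts of calls depended on the test. Over all features, 130 calls with edgeR became 907 with DESeq2 (351 higher, 556 lower), 640 with limma voom and sample quality weights (245 higher, 395 lower) and 49 with the replicate block (35 higher, 14 lower), and ran from 40 to 201 when 1 pool was left out. The 9 named calls became 58 with DESeq2, 55 with voom and 1 (HAL) with the block, and ran from 1 to 18 without 1 pool. The highest counts came without replicate 1 at 12 °C. Same-numbered pools had deviations correlated at 0.073, −0.086, 0.103 and 0.008, within the range of differently numbered pools, −0.229 to 0.263. These values show no pairing by number, but so few of them cannot exclude one. HAL stayed under 0.05 in all 8 fits that left out 1 pool, TDO2 was lost without replicate 3 at 1.5 °C (edgeR adjusted p = 0.0566), and NUBPL without replicate 3 of either group (0.0601 at 12 °C, 0.0537 at 1.5 °C). The other 6 were lost in several such fits, with adjusted p up to 0.0855 for Vg and 0.166 for PTPN12. Without a filter on low counts GABRB2 (0.0835), PIGX (0.0599) and PTPN12 (0.101) were lost. Differences from E. verrucosus numbered 10 with edgeR, 37 with DESeq2 and 7 to 9 without 1 pool of E. cyaneus. Differences from G. lacustris numbered 336 to 368 without 1 pool, of which 15 to 58 were lower, and 382 with no filter (362 higher, 20 lower). The authors' deposited table held 66 calls at 0.01 (21 higher, 45 lower). The number of lists with a positive median, 15, ran from 12 to 19 without 1 pool. No named gene reversed its sign. The cause of these shifts was not tested.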
